A study of Mus musculus with 7 samples.

Results

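The transcripts of 10 genes of the opioid and cannabinoid systems were followed in dorsal root ganglia, the clusters of sensory nerve cell bodies beside the spinal cord, after sciatic nerve injury in mice. The genes were chosen by name, with earlier results of these data known, and each matched 1 row of the 54309 genes in the table: the opioid receptors Oprm1, Oprd1, Oprk1 and Oprl1, the opioid peptide precursors Penk, Pdyn and Pomc, the cannabinoid receptors Cnr1 and Cnr2, and Faah, an enzyme that breaks down an endocannabinoid. All samples were from C57bl/6 mice labelled male and 6 to 8 weeks old, with the L4-6 ganglia taken 72 h after the injury and dissociated with enzymes, and the cells were enriched for neurons on an albumin gradient. The groups differed by the clock time of the injury and of the collection 72 h later, given as Zeitgeber time (ZT, hours after lights on): ZT20 with 4 samples, in the dark phase, and ZT8 with 3 samples, in the light phase. Injury time and collection time cannot be told apart, and the libraries carry numbers in one group and letters in the other, so a difference in library handling, if there was one, cannot be told apart from clock time either. Uninjured ganglia were not analysed here, so levels cannot be set against a state without injury. The labels do not say whether the samples came from separate animals or pools, so p-values measure only the spread between these samples, which may be in part technical.

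Opioid receptors are G-protein-coupled receptors that act through inhibitory G proteins: they lower cyclic AMP, close voltage-gated calcium channels and open potassium channels, and so reduce transmitter release from pain-sensing neurons. Enkephalins, dynorphins and beta-endorphin are cut from the precursors encoded by Penk, Pdyn and Pomc. The cannabinoid receptor CB1, encoded by Cnr1, uses the same inhibitory G proteins and responds to lipids such as anandamide, which the Faah product hydrolyses. In sensory ganglia CB1 and the mu opioid receptor are known as targets of pain relief outside the brain, whereas CB2, encoded by Cnr2, is mostly a receptor of immune cells.

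The libraries were not equal. Genes above 0 TPM (a level scaled for transcript length and to the same total in every sample) numbered 24192 to 25238 at ZT20 and 18297 to 22973 at ZT8, the fewest in ZT8 replicate 2. That library also listed at 0 TPM 290 genes that were at 1 TPM or more in every other sample, against 4 to 17 such genes for each of the other libraries. Depth is unknown from TPM, so a value of 0 is given as listed at 0 and not as absence. Summed TPM of 4 Y-linked genes was 0.0162 and 0.00868 in ZT20 replicates 3 and 4, labelled male, against 33.1 to 84.6 in the other samples. Xist, expressed from the inactive X chromosome of females, was at 2.21 and 2.30 TPM in those same libraries, at 1.08 TPM in ZT20 replicate 2, whose Y-linked sum was the lowest of the rest, and at 0 to 0.00467 TPM in the other 4. The values of ZT20 replicates 3 and 4 go against the male label, replicate 2 held transcripts of both kinds, and all 3 libraries are in the ZT20 group; the part of sex in the differences below was not tested. Summed satellite glia markers (6 genes) were 7483 to 9148 TPM at ZT20 and 12760 to 15466 TPM at ZT8, while neuron markers (8 genes) were 13067 to 14330 TPM and 11003 to 13836 TPM. Most of the satellite glia sum was Apoe, at 6261 to 7615 TPM at ZT20 and 10623 to 13557 TPM at ZT8. Of the same list, Kcnj10 and Cdh19 had positive log2 differences (0.21 and 0.38, limma adjusted p = 0.596 and 0.283), and the other genes had negative ones. Among single markers, 1 of 8 neuron, 4 of 8 nociceptor and 2 of 6 large-diameter neuron markers were higher at ZT20, and 3 of 6 satellite glia markers were lower, beside 12.8% of all tested genes higher and 3.61% lower. The general neuron list was thus near the background, and the nociceptor (50%) and large-diameter (33.3%) lists were above it. The part of cell composition in the differences below was not tested, except where a value scaled to the neuron markers is given.

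Averaged over the 7 samples, the order of transcript levels was Faah (14.3 TPM), Penk (12.9 TPM), Cnr1 (10.9 TPM), Oprl1 (7.64 TPM), Pomc (4.6 TPM), Oprk1 (1.83 TPM), Oprm1 (1.57 TPM), Oprd1 (0.550 TPM), Cnr2 (0.358 TPM) and Pdyn (0.118 TPM). TPM is a level per transcript length, so these genes can be compared with each other. Pomc was above Oprk1 and Cnr2 above Pdyn in 7 of 7 samples, whereas no other pair of neighbours kept its order in all samples. Oprk1 was above Oprm1 in 2 of 7 samples, and its place rested on ZT8 replicate 2: without that library the means were 0.997 TPM for Oprk1 and 1.83 TPM for Oprm1, and Cnr1 (11.97 TPM) stood above Penk (11.5 TPM). The neighbours Penk and Cnr1 changed places with the clock time: Cnr1 was the higher of the pair in 4 of 4 ZT20 samples and Penk in 3 of 3 ZT8 samples. A mean of at least 1 TPM, the filter for the test across genes, was reached by 7 of the 10 genes, and Oprd1, Cnr2 and Pdyn fell below it.

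**Figure D1:**
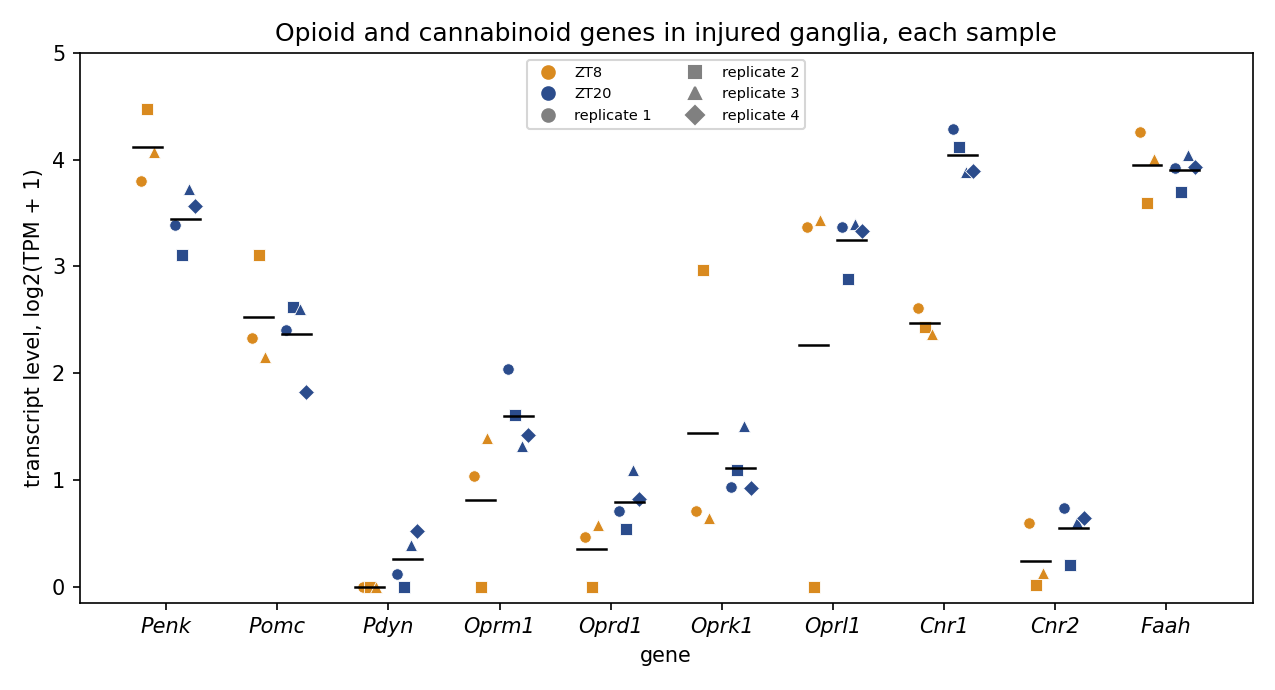
Transcript level of each gene as log2(TPM + 1) on the vertical axis, with 1 point per sample, colour for the clock time, shape for the replicate number and a black line for the group mean. The 4 ZT20 points of Cnr1 lie above the 3 ZT8 points, those of Penk lie below, and ZT8 replicate 2 sits at 0 for Oprm1, Oprd1 and Oprl1 and highest for Oprk1.

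Cnr1 was the 1 gene of the 10 that changed, and it was higher at ZT20. Its level was 18.5, 16.4, 13.8 and 13.9 TPM in the ZT20 samples (replicates 1 to 4) and 5.09, 4.40 and 4.14 TPM in the ZT8 samples (replicates 1 to 3). The groups did not overlap, as for 24.5% of tested genes with all ZT20 samples higher, and the lowest ZT20 sample stood well above the highest ZT8 sample. The group means were 15.6 ± 2.27 TPM (SD, n = 4) and 4.54 ± 0.489 TPM (SD, n = 3). On the log2(TPM + 1) scale the difference, ZT20 minus ZT8, was 1.58 with a standard error of 0.18 and a 95% interval of 1.16 to 2.0, a 2.99-fold difference (limma, Benjamini-Hochberg adjusted p = 0.00310 over 14800 genes). It ranked 229 of 14800 genes from the highest difference. Across all tested genes 16.4% passed the adjusted threshold of 0.05 and 12.8% passed as higher at ZT20, so 1 call among 7 tested members (14.3%) is near the background; 0 members passed as lower at ZT20, beside 3.61% of tested genes, and the count as such is not a result about these genes.

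The size of the Cnr1 difference was set against several features of the libraries. The median difference of all tested genes was 0.23 on the log2 scale, and relative to it the Cnr1 difference was 1.35. It was 1.33 when each sample was scaled to its neuron markers (limma adjusted p = 0.0130) and 1.6 with the neuron marker score as a covariate (limma adjusted p = 0.0302). That score, 10.03 to 10.08 at ZT20 and 9.59 to 9.94 at ZT8, did not overlap between the groups. The covariate fit can therefore hardly separate it from clock time. Long transcripts were higher at ZT20 in general: genes whose longest transcript had 5000 to 6488 nt, the length group that holds Cnr1 (5807 nt), had a median difference of 0.56. With each sample's trend with length removed, the Cnr1 difference was 1.25 (limma adjusted p = 0.00909). Without ZT20 replicates 3 and 4 it was 1.74, no longer past the threshold (limma adjusted p = 0.107), a setting in which 0 of 14800 genes passed by limma while 2425 had an unadjusted p under 0.05. In bulk RNA, more cells that express Cnr1 and more Cnr1 RNA per cell cannot be told apart.

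The region before a Cnr1 start site is shown because the study concerns the circadian clock, whose CLOCK and BMAL1 proteins bind the E-box letters CACGTG. RefSeq sequences (GRCm38.p6) of the 250 bases before a start site were at hand for 8 of the 10 genes, with 16 windows in all. Read on both strands, where the palindrome reads alike, CACGTG stood in 2 of the 16 windows, 1 of the 3 for Cnr1 and the single window of Oprd1, against 6.02% of all 32851 windows of that length. The D-box letters TTATGTAA and the cyclic AMP response element TGACGTCA were in 0 of the 16 windows, against 0.819% and 1.55% of all windows, and the ROR core letters AGGTCA, part of a longer site, were in 2 of 16 (Cnr1 and Pomc), against 14% of all. The windows printed here, with CACGTG in capitals, hold none of the other 3 motifs, so no motifs overlap in them. The first window is chr4:33924394-33924643 on the plus strand, with a GC content of 68.8% and 43 bases between the E-box and the start. The other is chr4:132144487-132144736 on the minus strand, with a GC content of 80% and 80 bases between the E-box and the start. A match of letters is a description and not a site of binding.
Cnr1: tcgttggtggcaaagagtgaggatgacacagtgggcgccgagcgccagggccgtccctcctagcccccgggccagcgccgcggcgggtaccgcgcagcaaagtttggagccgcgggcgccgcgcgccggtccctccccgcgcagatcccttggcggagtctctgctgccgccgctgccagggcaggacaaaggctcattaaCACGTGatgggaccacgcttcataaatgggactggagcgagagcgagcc
Oprd1: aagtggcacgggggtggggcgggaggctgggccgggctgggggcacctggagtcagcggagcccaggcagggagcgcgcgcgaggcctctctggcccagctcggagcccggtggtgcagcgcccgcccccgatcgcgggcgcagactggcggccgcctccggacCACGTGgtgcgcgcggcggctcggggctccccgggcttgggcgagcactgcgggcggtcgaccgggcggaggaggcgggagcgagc

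Cnr2 was low in every sample. It was at 0.668, 0.147, 0.521 and 0.559 TPM in the ZT20 samples (replicates 1 to 4) and at 0.511, 0.00949 and 0.0897 TPM in the ZT8 samples (replicates 1 to 3). The groups overlapped, and the difference did not pass (two-sided exact permutation test, p = 0.171; the smallest p this test can give is 0.0286). Cnr1 made up 90.9% to 99.8% of the summed TPM of both cannabinoid receptors over the 7 samples. Macrophage markers (8 genes, 74.0 to 105.6 TPM in sum at ZT20 and 88.6 to 209.4 TPM at ZT8) were present beside it, as were B and plasma cell markers (7 genes, 174.1 to 384.0 TPM at ZT20 and 351.8 to 843.4 TPM at ZT8) and T and NK cell markers (6 genes, 11.2 to 52.8 TPM and 28.1 to 96.3 TPM). Their part in the Cnr2 values was not tested.

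Faah, the anandamide hydrolase gene, gave no difference that passed. It was at 14.1, 11.97, 15.5 and 14.3 TPM in the ZT20 samples (replicates 1 to 4) and at 18.1, 11.1 and 15.1 TPM in the ZT8 samples (replicates 1 to 3), and the groups overlapped. The log2 difference was -0.055 with a standard error of 0.20 and a 95% interval of -0.51 to 0.40 (limma adjusted p = 0.863). The ratio of Cnr1 to Faah TPM within a sample was 0.889 to 1.37 at ZT20 and 0.274 to 0.397 at ZT8.

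Penk, the enkephalin precursor, was the most abundant of the opioid ligand transcripts, and its estimate had the opposite sign to that of Cnr1. It was at 9.44, 7.64, 12.2 and 10.9 TPM in the ZT20 samples (replicates 1 to 4) and at 12.95, 21.2 and 15.9 TPM in the ZT8 samples (replicates 1 to 3). All ZT20 samples lay below all ZT8 samples, though ZT20 replicate 3 and ZT8 replicate 1 were close; 33.2% of tested genes had groups that did not overlap, 8.72% with ZT20 lower. The log2 difference was -0.67 with a standard error of 0.23 and a 95% interval of -1.18 to -0.16, and it did not pass the threshold (limma adjusted p = 0.0737, unadjusted p = 0.0164). It did pass under each scaling that removes the shift of all genes, at -0.90 with median-ratio scaling (limma adjusted p = 0.0342), -0.98 with quantile normalization (0.0329) and -0.93 with neuron marker scaling (0.0458). It was smaller and did not pass with the neuron marker score as a covariate (-0.34, limma adjusted p = 0.584) or with array weights (-0.38, limma adjusted p = 0.179). That score did not overlap between the groups, so the covariate fit can hardly separate it from clock time. With the length trend removed the Penk difference was -0.37 (limma adjusted p = 0.318). Genes with a longest transcript of 1008 to 1612 nt, as for Penk (1449 nt), had a median difference of -0.13. An antisense gene that overlaps Penk in the annotation, A830012C17Rik, was at 0 to 0.0283 TPM.

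The other opioid precursors gave no difference that passed. Pomc, from which beta-endorphin and the melanocortins are cut, was at 4.30, 5.16, 5.06 and 2.54 TPM in the ZT20 samples (replicates 1 to 4) and at 4.02, 7.64 and 3.45 TPM in the ZT8 samples (replicates 1 to 3). The groups overlapped, with a log2 difference of -0.17 and a 95% interval of -0.88 to 0.54 (limma adjusted p = 0.731), and the sign turned in 8 of 22 alternative settings. A list of 5 pituitary genes, for the gland that is a main source of Pomc, summed to 53.6 to 87.2 TPM at ZT20 and 41.6 to 48.7 TPM at ZT8, nearly all of it Pcsk1, which neurons also express. Of its other genes, Crhr1 was at 0.133 to 2.82 TPM over the 7 samples, the corticotroph factor gene Tbx19 reached at most 0.108 TPM, and the hormone genes of other pituitary cells, Gh and Prl, reached at most 0.139 TPM and 0. The part of such cells in the Pomc values was not tested. Pdyn, the dynorphin precursor, was at 0.0846, 0, 0.310 and 0.431 TPM in the ZT20 samples (replicates 1 to 4) and was listed at 0 in all 3 ZT8 samples (two-sided exact permutation test, p = 0.257). Pnoc, which encodes the nociceptin precursor and thus the ligand of the Oprl1 receptor, was at 0 to 0.188 TPM over the 7 samples.

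Oprl1, the nociceptin receptor, was the most abundant opioid receptor transcript in 6 of 7 samples. It was at 9.31, 6.36, 9.55 and 9.09 TPM in the ZT20 samples (replicates 1 to 4), at 9.33 and 9.81 TPM in ZT8 replicates 1 and 3, and listed at 0 in ZT8 replicate 2. In those 6 samples it made up 63.7% to 81.9% of the summed TPM of the 4 opioid receptors. The log2 difference of 0.98 had a 95% interval of -0.74 to 2.69 (limma adjusted p = 0.381), and it rested on ZT8 replicate 2: without that library it was -0.16 (limma adjusted p = 0.601).

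Oprm1, which encodes the mu opioid receptor and so the main target of morphine, was lower than Oprl1 where both were above 0. It was at 3.11, 2.04, 1.49 and 1.68 TPM in the ZT20 samples (replicates 1 to 4), at 1.05 and 1.62 TPM in ZT8 replicates 1 and 3, and listed at 0 in ZT8 replicate 2. The highest value was in ZT20 replicate 1, and the groups overlapped. The log2 difference was 0.79 with a 95% interval of -0.071 to 1.64 (limma adjusted p = 0.174), and it was 0.38 without ZT8 replicate 2 (limma adjusted p = 0.341). An exon of Ipcef1, on the other strand, overlaps Oprm1 in the annotation; Ipcef1 was at 0.668 to 1.12 TPM at ZT20 and 0.0124 to 0.370 TPM at ZT8, and how reads of the overlap were assigned is not given in the sources used here.

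Oprd1, the delta opioid receptor gene whose upstream window holds the other E-box, was at 0.636, 0.452, 1.13 and 0.761 TPM in the ZT20 samples (replicates 1 to 4). ZT8 replicates 1 and 3 held 0.381 and 0.494 TPM and ZT8 replicate 2 was listed at 0, so 3 of 4 ZT20 samples were above every ZT8 sample. The difference did not pass (two-sided exact permutation test, p = 0.0857). Oprk1, the kappa opioid receptor gene, was at 0.909, 1.13, 1.84 and 0.901 TPM in the ZT20 samples (replicates 1 to 4) and at 0.635, 6.81 and 0.565 TPM in the ZT8 samples (replicates 1 to 3). It was the only opioid receptor above 0 in ZT8 replicate 2, where it was also highest. Its log2 difference was -0.33 with a 95% interval of -1.58 to 0.93 (limma adjusted p = 0.702), and the sign turned without that library (0.44, limma adjusted p = 0.244).

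**Figure D2:**
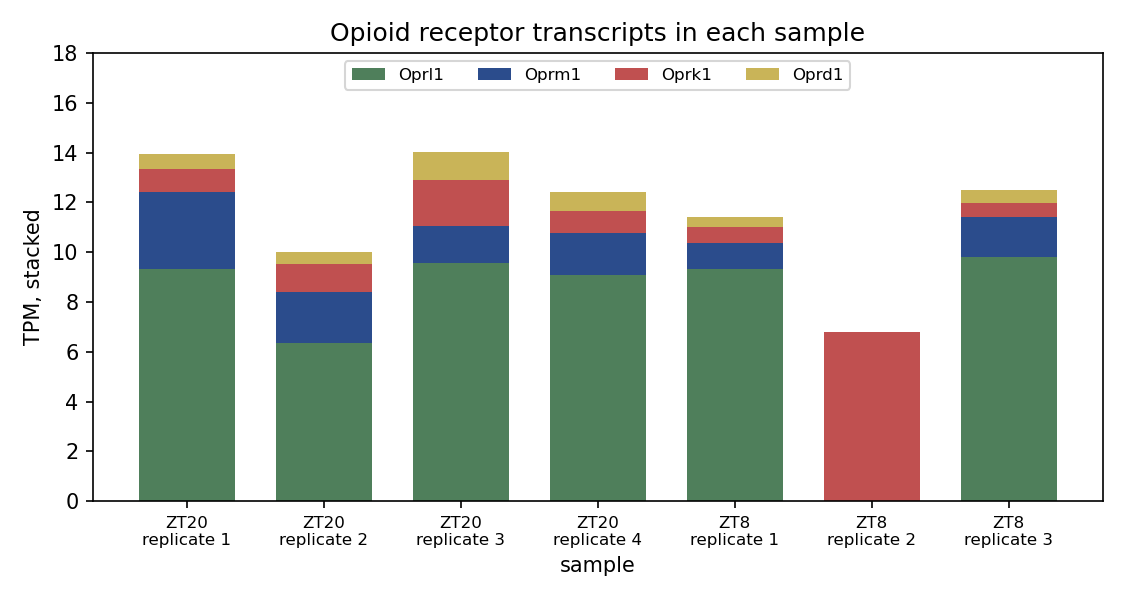
Stacked bars give the TPM of the 4 opioid receptor genes in each of the 7 samples, from 0. Oprl1 fills 63.7% to 81.9% of the bar in 6 samples, and the bar of ZT8 replicate 2 holds Oprk1 alone.

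**Figure D3:**
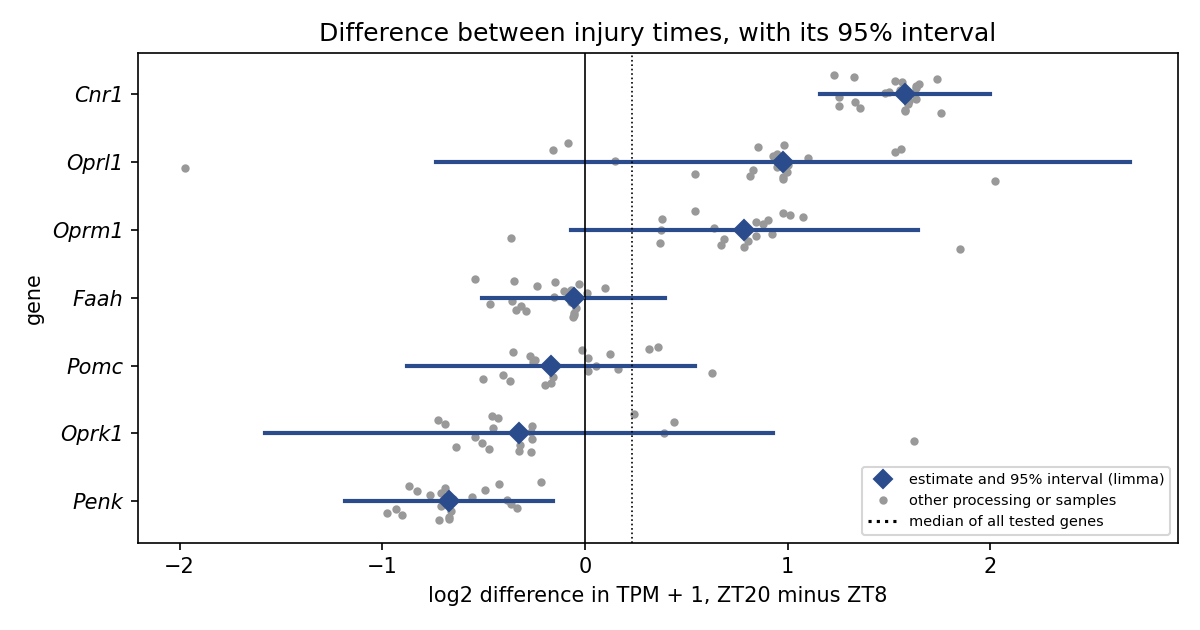
Log2 difference in TPM + 1, ZT20 minus ZT8, for the 7 tested genes: diamonds are the limma estimates, lines their 95% intervals, and grey points the values under other processing or with samples left out. The Cnr1 points all lie between 1.23 and 1.76, while those of Oprl1, Oprm1, Faah, Pomc and Oprk1 fall on both sides of 0.

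For each tested member, the genes nearest in pattern were named by the smallest mean absolute difference in log2(TPM + 1) over the 7 samples, after each gene was centred on its own mean. For Cnr1 they were Ost4 (0.091), a subunit gene of the oligosaccharyltransferase, and Gtpbp2 (0.092), a GTP-binding protein gene. Ost4 was at 51.7 to 70.1 TPM at ZT20 and 15.7 to 20.7 TPM at ZT8. For Penk they were Wdr45b (0.075) and Mtap (0.10), for Faah Rps6kl1 (0.035) and Hsdl2 (0.045), and for Pomc Rnf139 (0.083) and Cdh9 (0.10). For Oprm1 they were Cip2a (0.089) and Tsen54 (0.098). The neighbours of Oprl1, H2bc6 (0.13) and Ell (0.14), and of Oprk1, Urah (0.13) and Pcdhb11 (0.14), shared the extreme value of ZT8 replicate 2: H2bc6 was listed at 0 and Ell at 0.153 TPM there, while Urah and Pcdhb11 were at 5.46 and 6.43 TPM.

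Around these members, 94 further genes of the same pathways were listed by role, and 79 were tested. At ZT20, 19 of them were higher and 4 lower (29.1%, beside 16.4% of all tested genes), with a median log2 difference of 0.43 beside 0.23 for all tested genes. The split depended on scaling: it was 8 higher and 5 lower with median-ratio scaling, 5 and 4 with neuron marker scaling, and 12 and 3 with the length trend removed. Over all tested genes 1899 were higher and 534 lower, against 1088 and 1254 with median-ratio scaling.

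Among genes that make and destroy opioid peptides, 3 of 7 processing genes and 2 of 5 tested degradation genes changed, beside 16.4% of all tested genes; no test compared these short lists with other genes. Pcsk2, a prohormone convertase, was higher at ZT20, at 97.0 ± 5.31 TPM (SD, n = 4) against 52.7 ± 6.51 TPM (SD, n = 3), a log2 difference of 0.87 ± 0.12 (standard error; limma adjusted p = 0.00583). Pcsk1, the other main convertase, did not pass (0.56, limma adjusted p = 0.0629). Pam, the enzyme that amidates peptides, was lower at ZT20, at 23.5 ± 9.36 TPM (SD, n = 4) against 56.5 ± 4.63 TPM (SD, n = 3), a log2 difference of -1.31 (standard error 0.28, limma adjusted p = 0.0200). Scg5, which encodes 7B2, the chaperone of the Pcsk2 product, was lower as well (-0.60, limma adjusted p = 0.0108), so the convertase and its chaperone differed in opposite directions. Their longest transcripts have 4723 nt (Pcsk2) and 1208 nt (Scg5), in length groups with median differences of 0.47 and -0.13. With the length trend removed Pcsk2 was 0.65 (limma adjusted p = 0.0183). Over all alternatives Scg5 ran from -0.88 to -0.27, and neither sign turned. The part of transcript length in the opposite directions was not tested. The peptidase genes Ece1 (0.90, limma adjusted p = 0.0356) and Npepps (0.71, limma adjusted p = 0.0161) were higher at ZT20, but Ece1 did not pass without ZT8 replicate 2 (0.68, limma adjusted p = 0.0581).

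Endocannabinoid synthesis genes gave 0 calls by limma among 5 tested, none of them with an unadjusted p under 0.05; at 16.4% of all tested genes called, a count of 0 in so short a list is near the background. Napepld, an enzyme of anandamide synthesis, was at 3.05 to 4.13 TPM at ZT20 and 1.55 to 6.42 TPM at ZT8, and Dagla, which makes 2-arachidonoylglycerol, at 3.43 to 6.90 TPM and 0.419 to 4.16 TPM. Mgll, which breaks that lipid down, was at 72.3 to 91.6 TPM at ZT20 and 43.9 to 69.4 TPM at ZT8, without overlap, but did not pass (0.46, limma adjusted p = 0.119). The Mgll difference was 0.25 without ZT8 replicate 2 (limma adjusted p = 0.222) and 0.21 with median-ratio scaling (limma adjusted p = 0.398). Of 6 tested breakdown and carrier genes 1 changed: Fabp7, also a satellite glia marker, was lower at ZT20 (-0.39, limma adjusted p = 0.0327). This 16.7% of the list is at the background of 16.4%. The Fabp7 call was lost in 14 of 23 alternative settings, among them the length correction (-0.095, limma adjusted p = 0.568). Trpv1, the capsaicin receptor that anandamide also activates and 1 of the nociceptor markers, was higher at ZT20 (0.94, limma adjusted p = 0.0208). Of 5 tested receptor-associated genes 2 were higher at ZT20 (40%, beside 12.8% of all tested genes). Gprasp1 had a log2 difference of 0.89 (limma adjusted p = 0.00954), and 0.56 with the length trend removed (limma adjusted p = 0.0308). Sgip1, a protein that holds CB1 at the cell surface, was at 26.7 ± 5.85 TPM (SD, n = 4) against 13.4 ± 2.01 TPM (SD, n = 3). Its log2 difference was 0.93 (limma adjusted p = 0.0204), but 0.58 and not passed with the length trend removed (limma adjusted p = 0.0685). Cnrip1, which binds the tail of CB1, did not pass (-0.044, limma adjusted p = 0.832).

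Downstream of the receptors, 3 of 11 G-protein subunit genes were higher at ZT20 and none lower, beside 12.8% and 3.61% of all tested genes. They were Gnb1 (1.41, limma adjusted p = 0.0211), Gnao1 (0.85, limma adjusted p = 0.0171) and Gng2 (0.60, limma adjusted p = 0.0354). Gnao1 did not pass with the length trend removed (0.55, limma adjusted p = 0.0742), nor Gng2 with median-ratio scaling (0.35, limma adjusted p = 0.116). Each passed in the other setting. Of 5 genes of voltage-gated calcium channels, a class with members that these receptors close, 4 were higher, beside 12.8% of all tested genes. They were Cacna2d1 (1.29, limma adjusted p = 0.0210), Cacna1h (1.02, 0.0303), Cacna1b (0.97, 0.0234) and Cacna1a (0.77, 0.0482). Their longest transcripts have 7436 to 9736 nt, in the length group whose median difference was 0.69. With the length trend removed, Cacna2d1 (0.89, limma adjusted p = 0.0690), Cacna1h (0.60, 0.145), Cacna1b (0.54, 0.105) and Cacna1a (0.36, 0.264) no longer passed, nor did they with median-ratio scaling, where the differences were 1.04, 0.86, 0.74 and 0.58 (limma adjusted p = 0.0565, 0.0565, 0.0651 and 0.120), so most of each difference was kept there. Of the arrestins, which end receptor signalling, Arrb1 was higher, at 57.6 ± 11.3 TPM (SD, n = 4) against 20.7 ± 4.61 TPM (SD, n = 3), a log2 difference of 1.43 ± 0.21 (standard error; limma adjusted p = 0.00657), whereas Arrb2 was at 0.056 (limma adjusted p = 0.831). The receptor kinase gene Grk2 was higher (0.63, limma adjusted p = 0.0406). It passed with the length trend removed (0.61, limma adjusted p = 0.0390) but not with median-ratio scaling (0.39, limma adjusted p = 0.123). Among 13 tested RGS genes, whose products speed up the switching off of G proteins, 3 changed (23.1%, beside 16.4% of all tested genes). Rgs20 (1.05, limma adjusted p = 0.0133) and Rgs17 (0.67, 0.0222) were higher and Rgs10 was lower (-0.81, limma adjusted p = 0.00988). Rgs17 did not pass with the length trend removed (0.26, limma adjusted p = 0.255) or with median-ratio scaling (0.44, limma adjusted p = 0.0818). Kcnj3, the 1 tested gene of the potassium channels that these receptors open, did not pass (1.40, limma adjusted p = 0.0579). Kcnj3 was at 0.134 TPM in ZT8 replicate 2, and without that library its difference was 0.82 and passed (limma adjusted p = 0.0303). It passed in 3 of 22 alternative settings, over which its difference ran from -0.11 to 2.21. The calls varied in firmness: of 23 alternative settings, Arrb1 and Pcsk2 each passed in 21, Rgs10 in 20, Pam and Scg5 in 18, Rgs20 in 17, Gnb1 in 15, Cacna2d1 in 13, and Cacna1b and Fabp7 in 9, while Cacna1h passed in 7 of 22. Those settings include a looser threshold of 0.10, which a called gene cannot fail. Of the other called genes named here, Gprasp1 passed in 19 of 23 and Gnao1 and Npepps in 15. Trpv1 passed in 14, Sgip1 in 12, Rgs17 in 11, Gng2 in 10, Grk2 in 9 and Ece1 in 6 of 23, and Cacna1a in 5 of 22.

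**Figure D4:**
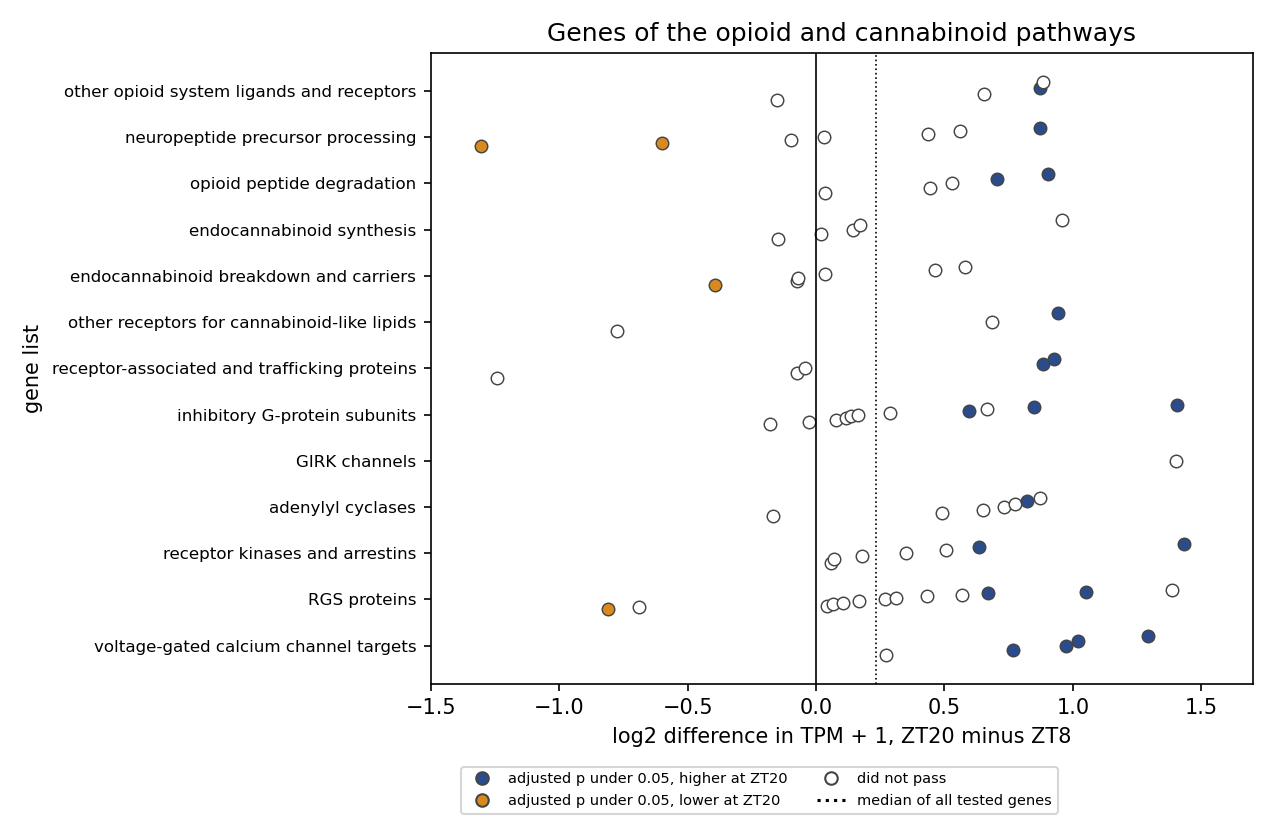
Log2 difference in TPM + 1, ZT20 minus ZT8, for each tested pathway gene (1 point per gene), by list; blue points passed as higher, orange points as lower, and the dotted line is the median of all tested genes, 0.23. Calcium channel genes have 4 of 5 points called higher, beside 12.8% of all tested genes, but all 4 calls (Cacna2d1, Cacna1h, Cacna1b and Cacna1a) end with the length correction (differences of 0.36 to 0.89) or with median-ratio scaling (0.58 to 1.04); endocannabinoid synthesis has none called.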

How the data were processed

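RNA of 7 samples was sequenced from low-input libraries. The values are TPM as deposited by the authors, 1 column per sample (0 columns unused). The submitters' processing notes name FastQC 0.11.9, Trim Galore 0.6.6, Salmon 1.6.0, DESeq2 1.34.0 and GRCm39, without role or order. The annotation release and the strand setting are not given in the sources used here. TPM keeps no depth, so counting error is unknown.

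From the deposited TPM, log2(TPM + 1) was computed, and genes averaging 1 TPM or more were fitted with limma 3.58.1 (R 4.3.3, intensity trend, two-sided, Benjamini-Hochberg adjustment over 14800 genes, threshold 0.05) as ZT20 minus ZT8. Tested on simulated data for this comparison with 14800 genes, of which 200 had a log2 change of 1.5 put in, the fit recovered 62.5% of those, with 3.85% of calls false. Members under the filter were tested by exact permutation of log2(TPM + 1).

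Alternatives were another pseudocount, filters, scalings, covariates, weights, a replicate block, a length correction (loess, span 0.3, lengths from GENCODE M21 for 99.6% of tested genes) and leaving out libraries. The named genes were all members, 7 pathway genes chosen by role, up to 6 of the largest changes in each direction among called pathway genes, and the 2 nearest genes of each tested member; other pathway genes with values were chosen after these were seen. Members and lists were chosen with earlier results of these data known. Promoter windows are the RefSeq table's bases before the start site. Figures were drawn with matplotlib 3.10.9.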

Additional observations from a re-analysis of the deposited data

Results flagged for a closer look

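Within the 4 ZT20 samples, 2 of 27 genes checked had a single sample far from the rest, where chance gives about 1.35. For Oprl1 the lone sample was ZT20 replicate 2 with 6.36 TPM, below a span of 9.09 to 9.55 TPM in its group; this distance was 0.854 of the whole range. Cacna1b, a calcium channel gene, had its lone value in that same library, 15.3 TPM beside 20.4 to 20.8 TPM, a distance of 0.938 of the range.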

How the results depend on the processing

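Cnr1 passed in 22 of 23 alternatives, from 1.23 to 1.76, and failed without ZT20 replicates 3 and 4 together, where the members higher at ZT20 numbered 0. The threshold of 0.10 is among these alternatives and could not end the Cnr1 call. Members lower numbered 1 (Penk) with median-ratio scaling, quantile normalization, neuron marker scaling and an adjusted p threshold of 0.10, and 1 (Faah, -0.54) with the length correction without ZT8 replicate 2. That setting and the block with the length correction were chosen after the data were seen. The cause of each change was not tested. Unknown depth limits the low genes Oprd1, Cnr2 and Pdyn; with a library left out, their exact test cannot reach the threshold, so those runs say nothing of stability.

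Pathway genes higher at ZT20 numbered 9 with no filter (all 94 then tested), 8 with median-ratio scaling, 9 with quantile normalization, 5 with neuron marker scaling, 3 with the neuron marker covariate, 12 with the length correction, 10 with it and without ZT8 replicate 2, and 0 without ZT20 replicates 3 and 4. Lower ones numbered 2 with no filter, 2 with the covariate and 0 without those replicates. Leaving out 1 replicate gave 4 to 23 higher and 2 to 6 lower, the fewest higher without ZT20 replicate 3, the fewest lower without ZT20 replicate 3 or 4, and the most of both without ZT8 replicate 2. Of all genes, 978 were higher and 200 lower with no filter, 1088 and 1254 with median-ratio scaling, 1023 and 814 with quantile normalization, 856 and 1210 with neuron marker scaling, 687 and 150 with the covariate, 1245 and 276 with the length correction, 2982 and 917 with array weights, 3098 and 981 at a threshold of 0.10, and 0 and 0 without ZT20 replicates 3 and 4; 332 were lower without the intensity trend. Leaving out 1 replicate gave 543 to 2374 higher and 81 to 681 lower.

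Replicate numbers were shared by the groups, but same-numbered samples did not deviate together (r = -0.014, 0.15 and 0.083 for numbers 1 to 3). With the replicate block 891 genes were higher and 283 lower, 8 pathway genes were higher, and Pomc turned to 0.013. With the block and the length correction these were 495, 128 and 4, 1 pathway gene was lower, and Pomc was 0.31.

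Signs turned in genes that did not pass. Over all alternatives Kcnj3 ran from -0.11 to 2.21 and Cnrip1 from -0.37 to 0.13 (0.13 with the length correction). With the neuron marker covariate Oprm1 was -0.36, Oprk1 1.62, Oprl1 -1.97, Pomc 0.63, Dagla -0.59, Mgll -0.093 and Arrb2 -0.25. The neuron marker score did not overlap between the groups. With array weights Oprk1 was 0.39 and Pomc 0.054, and with the length correction Pomc was 0.17. With that correction and without ZT8 replicate 2, Oprk1 was 0.24, Oprl1 -0.081 and Pomc 0.36. With median-ratio scaling, quantile normalization and neuron marker scaling Napepld was -0.022, -0.12 and -0.054, and Arrb2 -0.19, -0.034 and -0.22. Arrb2 was -0.029 with the block and -0.12 without ZT20 replicates 3 and 4. Leaving out 1 replicate gave -0.72 to 0.44 for Oprk1, -0.16 to 1.56 for Oprl1, -0.36 to 0.12 for Pomc, -0.23 to 0.097 for Faah, -0.15 to 0.62 for Napepld and -0.056 to 0.15 for Arrb2.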
